A study of Zea mays with 109 samples.

Results

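The growth of the maize tassel from 2 mm to 1 cm was described from 6 of the 109 samples of the series. These were the libraries labelled 2mm Tassel and 1cm Tassel in 3 assays (total RNA, small RNA and circular RNA, or circRNA), with 1 library per size and assay. All came from the inbred line B73, the reference genotype of maize, with no transgene or agent named in the labels. Plants were kept at 25 °C under days and nights of 12 h each, and neither plant age nor developmental stage was given for a tassel. Each library stood for an equal mix of RNA from 3 replicates of 5 to 10 plants, per the labels' protocols, so plants were pooled and no replicate spread could be computed. No test was possible between the sizes, and differences are given as folds with no p-value. Ears of 2 mm, 5 mm and 1 cm, with the other tissues of each assay, served as a background of 24 further libraries.

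The tassel is the male inflorescence of maize. It forms when the shoot apical meristem (SAM) stops making leaves and becomes an inflorescence meristem, which gives rise in turn to branch, spikelet pair, spikelet and floral meristems. In tassel florets the pistil aborts and the stamens develop, whereas ear florets keep the pistil. CircRNAs are closed loops made by back-splicing of exons. Plant small RNAs include microRNAs and the short interfering RNAs that guide silencing, and RNA bound by ribosomes is taken as a measure of messages in translation. In whole tassels, a fall in the number of cells of a type and a fall in RNA per cell cannot be told apart. None of the 50738 identifiers in the total RNA and ribosome-bound data had a match in the reference gene table, so entries are given by identifier, without names or roles, and neither the tissue labels nor the 15 gene lists prepared by symbol could be checked against known genes.

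The total RNA scale itself differed between the tassels. The listed entries, in transcripts per 1000000 (TPM), summed to 395863 at 2 mm, the highest of 26 libraries, and to 165539 at 1 cm, the 25th of 26. Levels are therefore given as rescaled TPM, for which each library's listed values were set to sum to 1000000, and log2 differences as log2(rescaled TPM + 1) in the 1cm Tassel minus that in the 2mm Tassel. A single entry, ZmLnc005325, took 2.36% of the listed TPM at 2 mm and 14.8% at 1 cm, the highest share of the 26 libraries. Its share was 4.62% to 6.67% in the 3 ears. Its level was 23623 rescaled TPM at 2 mm and 148394 at 1 cm, a log2 difference of 2.65, or 1.39 for TPM as deposited. Entries whose names begin with ZmLnc, a prefix that the files do not spell out, together held 12.0% of the listed TPM at 2 mm and 29.0% at 1 cm. Without ZmLnc005325 these entries still went from 9.67% to 14.2% of it, against 12.8% to 14.7% in the 3 ears. Among them was ZmLnc000499, at 8859 rescaled TPM at 2 mm and 25889 at 1 cm. Gene models, the entries with a Zm00001d identifier and no transcript suffix, went from 79.4% to 63.8%. The 2512 entries with such a suffix held 0.336% and 0.506% and are counted as a class of their own. The number of entries with at least 1 rescaled TPM was 21800 at 2 mm and 22886 at 1 cm, the highest of 26. The order was the opposite as deposited, with 19048 entries of at least 1 TPM at 2 mm and 14942 at 1 cm.

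Of 23153 total RNA entries with a mean of at least 1 rescaled TPM over both tassels, 1319 (5.7%) were at least 4-fold higher in the 1cm Tassel and 448 (1.93%) at least 4-fold lower. The median log2 difference of all entries was -0.42, with 10th and 90th percentiles of -1.27 and 1.38. Which direction held more entries depended on the scale and on the fold: at 2-fold, a threshold chosen after the data were seen, 3109 entries were higher and 4435 lower on the rescaled values. With TPM as deposited, 163 entries (0.704%) were at least 4-fold higher and 2564 (11.1%) at least 4-fold lower, with a median of -1.18. With differences centred on the median, the counts were 1986 (8.58%) higher and 244 (1.05%) lower. Higher entries thus made up 74.6% of those past 4-fold after rescaling, 5.98% as deposited and 89.1% after centring. On all 3 scales, 163 entries were higher, of which 93 were gene models and 61 ZmLnc entries, and 197 were lower, of which 115 were gene models and 72 ZmLnc entries. These 163 are all the entries that were higher as deposited, so the other scales removed none of them. The ear pair, treated in the same way, had 604 of 22004 entries (2.74%) at least 4-fold higher at 1 cm and 276 (1.25%) at least 4-fold lower.

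**Figure D1:**
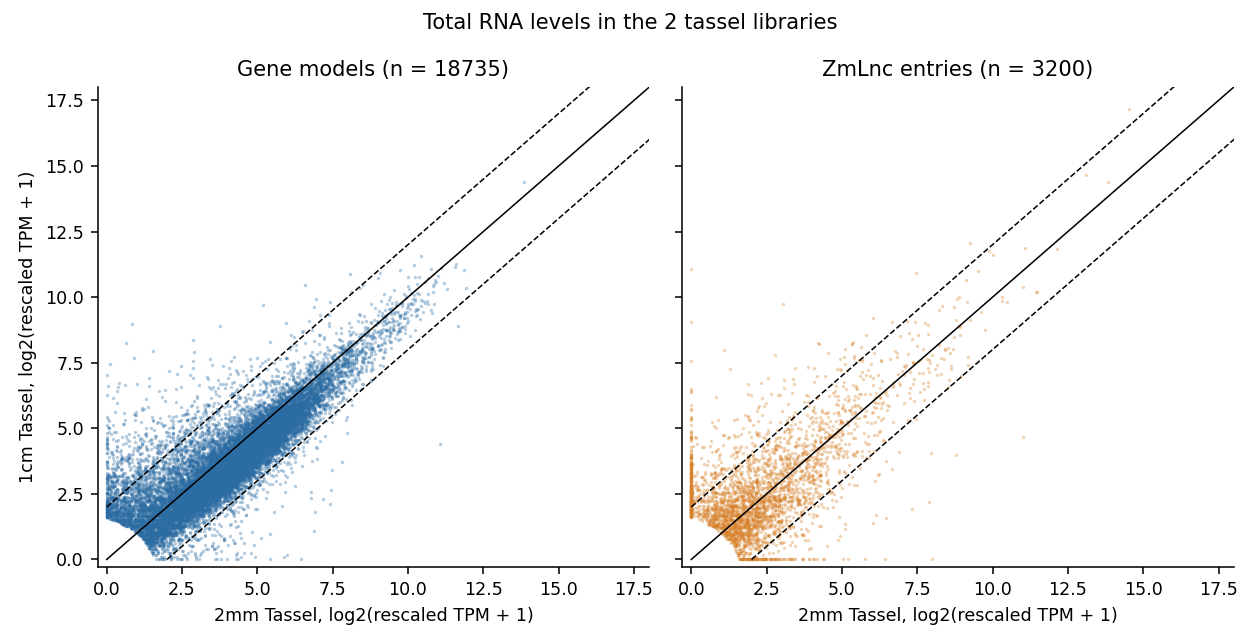
Total RNA levels in the 2mm Tassel (x axis) and the 1cm Tassel (y axis), as log2(rescaled TPM + 1), for 18735 gene models (left) and 3200 ZmLnc entries (right) with a mean of at least 1 rescaled TPM. Each point is 1 entry, the solid line marks equal levels and the dashed lines mark 4-fold differences on this scale. Gene models lie in a band mostly below the line of equality, with a median of -0.47 and a sparse group above the upper dashed line, and ZmLnc entries are spread more widely.

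Gene models and ZmLnc entries differed in how often they passed 4-fold. Of 18735 gene models kept, 755 were at least 4-fold higher in the 1cm Tassel and 258 at least 4-fold lower, together 5.41%, with a median log2 difference of -0.47. Of 3200 ZmLnc entries kept, 503 were higher and 165 lower, together 20.9%, with a median of 0.21. The gap was present at each level of expression: in 5 bins of mean level, from 1 to 3 up to at least 100 rescaled TPM, between 16.6% and 26.0% of ZmLnc entries were past 4-fold, against 3.68% to 8.13% of gene models. The order of the classes depended on the scale. After centring on the median it was the same, with 25.75% of ZmLnc entries and 6.94% of gene models past 4-fold. As deposited, 7.28% of ZmLnc entries and 12.4% of gene models were past 4-fold, with 2225 gene models and 172 ZmLnc entries at least 4-fold lower and 93 and 61 at least 4-fold higher. In the ear pair 10.6% of ZmLnc entries and 2.94% of gene models were past 4-fold on the rescaled values. There, ZmLnc entries past 4-fold were mostly lower at 1 cm, 205 against 113 higher, whereas gene models were mostly higher, 470 against 53 lower.

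**Figure D2:**
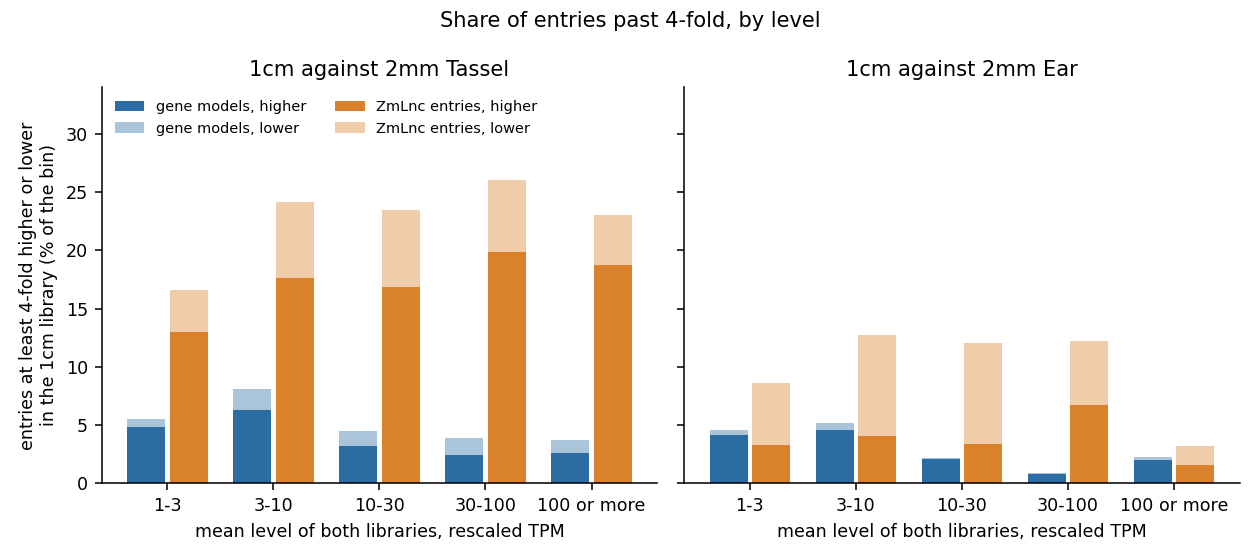
Share of gene models (blue) and ZmLnc entries (orange) at least 4-fold higher (full colour) or lower (pale) in the 1cm library, as a percentage of the entries in each bin of mean rescaled TPM (x axis), for tassel (left) and ear (right). In the tassel ZmLnc entries stand at 16.6% to 26.0% and gene models at 3.68% to 8.13% on rescaled values. As deposited the order of the classes is the opposite, 7.28% against 12.4% over all levels. After centring on the median it is the same as on rescaled values, 25.75% against 6.94% over all levels.

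The gene models with the widest differences were near 0 in one tassel or far below their level in the other. Zm00001d022630 was at 0.783 rescaled TPM at 2 mm and 499.6 at 1 cm, a log2 difference of 8.13 (6.00 as deposited). It was a leaf-abundant gene model in these libraries, with 21.3 to 1058 rescaled TPM over 11 leaf libraries and the highest level in the Ear leaf, and it stayed at 0.720 to 3.43 in the 3 ears. Zm00001d022032 was at 0.556 rescaled TPM at 2 mm and 300.9 at 1 cm, a log2 difference of 7.60 (5.38 as deposited). Its highest other levels were in the primary roots, at 267 and 484 rescaled TPM, and the ears had 0.569 to 22.02.

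In the other direction, Zm00001d033020 was at 2122 rescaled TPM at 2 mm and 20.2 at 1 cm, a log2 difference of -6.64 (-7.60 as deposited). The ears had 2575 rescaled TPM of it at 2 mm, 2339 at 5 mm and 550 at 1 cm, so its level was lower in the larger organ in both inflorescences. Zm00001d025873 was at 86.0 rescaled TPM in the 2mm Tassel and was listed at 0 in the 1cm Tassel. Its levels in the 3 SAM libraries were 38.1, 59.6 and 83.4 rescaled TPM, those in the primary roots were 73.1 in Primary Root(6DAS) and 16.1 in Primary Root(V1), and those in the ears were 6.72 at 2 mm, 2.27 at 5 mm and 0.566 at 1 cm. These 4 identifiers are the 2 highest and 2 lowest by log2 difference among gene models with a mean of at least 10 rescaled TPM.

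The 10 gene models highest by that rule had 75.8 to 499.6 rescaled TPM in the 1cm Tassel and at most 1.92 in the 2mm Tassel. Outside the tassels, 4 of the 10 were highest in a leaf library, 3 in the Inflorescence library, 2 in a primary root and 1 in an ear. Of the 4 in a leaf library, 3 were highest in the Husk leaf and 1 in the Ear leaf. The 10 lowest had 29.1 to 2122 rescaled TPM in the 2mm Tassel and at most 20.2 in the 1cm Tassel. Of these 10, 6 were highest outside the tassels in SAM(V4), 3 in an ear and 1 in a root. Of all gene models kept, 5.58% were highest in SAM(V4), and 13.9%, 10.3% and 2.17% in the ears of 2 mm, 5 mm and 1 cm. The Husk leaf was highest for 6.53% of all, the Ear leaf for 2.46% and the Inflorescence library for 3.76%. Other leaf libraries were highest for further gene models. The share for all leaf libraries together is not given here, so the 4 of 10 cannot be set against it. Primary Root(V1) was highest for 7.64% and Primary Root(6DAS) for 2.82%.

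The whole lists of gene models past 4-fold were also read in the libraries that did not choose them. The 755 higher gene models had a median of 15.9 rescaled TPM in the Husk leaf, against 10.2 for all 18735 gene models kept. The Husk leaf was the only one of the 24 other libraries in which their median was above that of all gene models. Their medians were 0.589 in the 2mm Ear, 1.74 in the 5mm Ear, 2.64 in the 1cm Ear and 3.48 in the Inflorescence library. Outside the tassels, 162 of the 755 (21.5%) were highest in the Husk leaf, against 6.53% of all gene models kept. Primary Root(V1) followed with 80 (10.6%, against 7.64% of all), Ear leaf with 71 (9.40%, against 2.46%) and Inflorescence with 66 (8.74%, against 3.76%).

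The 258 lower gene models had a median of 15.2 rescaled TPM in SAM(V4), against 14.5 for all gene models kept, and SAM(V4) was the only one of the 24 other libraries with their median above that of all. Their medians were 10.99 in the 5mm Ear and 10.2 in the 2mm Ear, and 1.82 in the Husk leaf. Outside the tassels 54 of the 258 (20.9%) were highest in SAM(V4), against 5.58% of all gene models kept. The 5mm Ear was highest for 41 (15.9%, against 10.3% of all) and the 2mm Ear for 37 (14.3%, near the 13.9% of all). Husk and other leaf tissue in the tassel samples was not measured separately, and its part in these differences was not tested.

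The sum of listed TPM differed between these libraries too. The Husk leaf had the lowest listed sum of the 26 libraries, 159407, next to the 1cm Tassel, and SAM(V4) the third highest, 370401. Stem(V6), with 172884, had the median of the higher list at -1.24 from that of all gene models on the log2 scale, or -0.46 for the gene models past 4-fold on all 3 scales, and Embryo(R2), with 377604, had that of the lower list at -1.15, or -1.53. Over the 24 other libraries the Spearman correlation of the listed sum with the median of the list minus that of all gene models was -0.47 for the higher list and 0.24 for the lower list. The tissue and the listed sum cannot be told apart with 1 library each. The 93 gene models at least 4-fold higher on all 3 scales, a set chosen after the data were seen, had a median of 23.8 rescaled TPM in the Husk leaf. It was the only other library with their median above that of all gene models. There, 20 of them (21.5%, against 6.53% of all kept) were highest. The 115 lower on all 3 scales had a median of 16.7 rescaled TPM in SAM(V4), also the only other library above all. There, 32 (27.8%, against 5.58% of all kept) were highest. Both sets are parts of the higher and lower lists and were chosen from the same tassel libraries. They were also read on rescaled values, so they are no separate check on the listed sum.

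**Figure D3:**
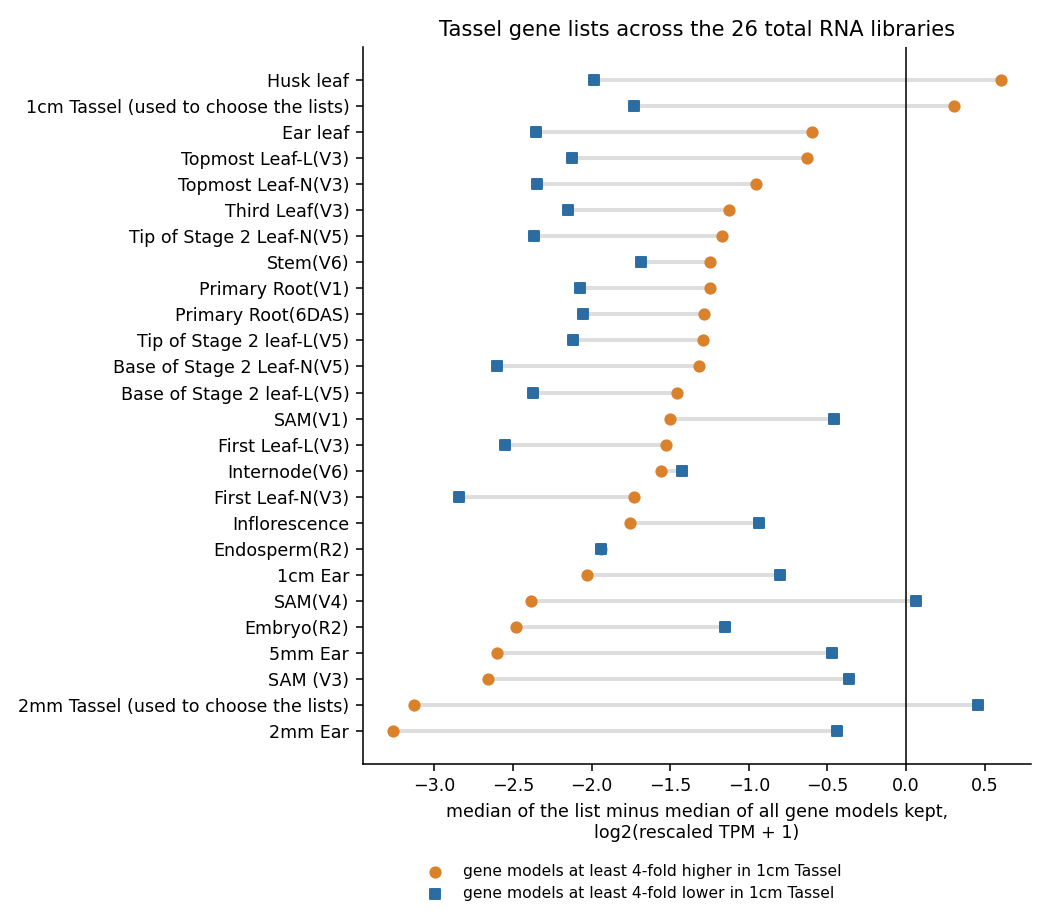
Median log2(rescaled TPM + 1) of the 755 gene models at least 4-fold higher (orange circles) and the 258 at least 4-fold lower (blue squares) in the 1cm Tassel, minus the median of all 18735 gene models kept, in each of the 26 total RNA libraries. The vertical line marks no difference from all gene models. Outside the tassels the higher list lies above that line in the Husk leaf alone, at 0.60, and the lower list in SAM(V4) alone, at 0.06.

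Across all total RNA entries the 2mm Tassel was nearest to SAM(V4) and the 1cm Tassel to the Inflorescence library. Over 25403 total RNA entries, the Spearman correlation of the 2mm Tassel was 0.951 with SAM(V4), closely followed by 0.948 with the 5mm Ear. It was 0.871 with the 1cm Tassel, which was the 8th nearest of 25 libraries. The 1cm Tassel had a correlation of 0.922 with the Inflorescence library and 0.912 with the 1cm Ear, and the 2mm Tassel was its 7th nearest. With the Husk leaf the correlation was 0.470 for the 2mm Tassel and 0.551 for the 1cm Tassel. These correlations are descriptions across entries, which are not independent, and every library is compared on the same entries.

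The ear pair shares no library with the tassel pair. Of the 755 gene models at least 4-fold higher in the 1cm Tassel, 630 (83.4%) had a difference above 0 between the 2mm and 1cm ears, and 130 (17.2%) were at least 4-fold higher at 1 cm. Of all gene models kept, 46.9% were above 0 and 2.39% were at least 4-fold higher. The list was low in the ears: 464 of the 755 reached a mean of 1 rescaled TPM over the 2mm and 1cm ears, against 17460 of all 18735, so members near 0 in the 2mm Ear had little room to be lower at 1 cm. The median ear difference of the list was 0.84 on the log2 scale, against -0.03 for all. Of the 258 lower gene models, 171 (66.3%) had an ear difference below 0, against 52.8% of all, with a median of -0.42. At least 4-fold lower in the 1cm Ear were 13 of them (5.04%, against 0.160% of all), and at least 4-fold higher were 9 (3.49%, against 2.39% of all). Across 17460 gene models kept in both pairs, Pearson's r of the tassel and ear differences was 0.47. For 2593 ZmLnc entries it was 0.21.

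The widest ZmLnc differences ran from listed values of 0. ZmLnc005895 was listed at 0 at 2 mm and was at 2164 rescaled TPM at 1 cm. In the ears it was at 149 rescaled TPM at 2 mm, 453 at 5 mm and 0.528 at 1 cm, and in SAM(V1) at 1027. ZmLnc004996 was listed at 0 at 2 mm and was at 534 rescaled TPM at 1 cm, with 74.2, 125 and 254 in the ears in order of size.

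Both ZmLnc entries with the lowest differences were listed at 0 in the 1cm Tassel. ZmLnc005310 had 252.6 rescaled TPM in the 2mm Tassel, and the ears had 0, 0.834 and 24.3 in order of size. ZmLnc005308 had 84.3 in the 2mm Tassel, and the ears had 0, 0 and 38.9 in order of size. Both were highest outside the tassels in the Embryo(R2) library, at 252.4 and 194 rescaled TPM.

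The 20 libraries of RNA bound by ribosomes include the 1cm Tassel but no 2mm Tassel. This RNA therefore gives the level at 1 cm beside 5 comparison libraries (5mm Ear, 1cm Ear, Inflorescence, SAM (V3) and SAM(V4)). It is a separate assay from the one that chose the lists, but the lists were chosen by their total RNA level in the 1cm Tassel. With no size pair, this assay does not check the difference between the sizes. The ribosome-bound libraries of leaf, stem and root, among them the Husk leaf, were not compared here. The 755 gene models higher in total RNA had a median of 8.43 TPM on ribosomes in the 1cm Tassel and 0.93 to 2.5 TPM in the 5 others. In the 1cm Tassel this was below the median of all gene models kept, 12.6 TPM. Of the 755, 575 (76.2%) were above all 5 others, against 18.5% of all gene models kept. The 258 lower gene models had a median of 2.03 TPM in the 1cm Tassel and 4.43 to 12.5 TPM in the 5 others. Of these, 132 (51.2%) were below all 5, against 23.9% of all. Zm00001d022630 was at 416 TPM and Zm00001d022032 at 331 TPM on ribosomes in the 1cm Tassel, whereas Zm00001d033020 was at 15.1 TPM and Zm00001d025873 was listed at 0.

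A far smaller share of small RNA features than of total RNA entries passed 4-fold between the sizes, in the ear pair as in the tassel pair. The assays list different kinds of feature, so these shares are not a like comparison. Of 86055 small RNA features with a mean of at least 1 TPM, 10 (0.0116%) were at least 4-fold higher in the 1cm Tassel on the log2(TPM + 1) scale and 0 (0%) at least 4-fold lower. Within 2-fold lay 99.95% of features, and the 1st and 99th percentiles of the log2 difference were -0.46 and 0.54. At 2-fold, 30 were higher and 9 lower. The ear pair had 11 features (0.0122%) at least 4-fold higher and 6 (0.00665%) at least 4-fold lower.

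All 10 higher features had means under 10 TPM, lying between 0.00814 and 1.24 TPM at 2 mm and between 3.50 and 8.63 TPM at 1 cm. By their profiles over the 26 libraries they fell into 5 sets of features with correlations over 0.99 on the log2 scale, of 4, 3, 1, 1 and 1 members, so the 10 are not separate observations. In 8 of the 10 the Husk leaf was above the 1cm Tassel, at 16.8 to 39.9 TPM. These 8 make up the sets of 4 and 3 members and 1 single feature. In 3 of the 10 the Husk leaf was the highest of the 24 other libraries, and in the rest another library was higher. The same counts over all small RNA features are not given here, so whether 8 or 3 of 10 is unusual cannot be told. As for the gene models, the part of leaf tissue in these levels was not tested.

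Among features with a mean of at least 10 TPM none reached 4-fold. ZmsRNA231789 had 9.46 TPM at 2 mm and 20.99 at 1 cm, the highest log2 difference of these, 1.07. ZmsRNA022860 followed, with 14.6 TPM at 2 mm and 30.3 at 1 cm, a log2 difference of 1.00. ZmsRNA042800 had the lowest, with 77.2 TPM at 2 mm and 34.8 at 1 cm, a log2 difference of -1.13. ZmsRNA131345 was at 14.5 TPM at 2 mm and 6.51 at 1 cm, a log2 difference of -1.04. The most abundant small RNA of both tassels, ZmsRNA091730, was at 682 TPM at 2 mm and 375 at 1 cm, within 2-fold, and the ears had 160, 124 and 312 in order of size. Over 86369 small RNA features the 2mm Tassel was nearest to the Inflorescence library, with a Spearman correlation of 0.993, followed by SAM (V3) with 0.991. The 1cm Tassel had 0.989 with each of the 1cm Ear, the Inflorescence library and SAM (V3), so no single nearest library stood out. The correlation between the tassels was 0.986.

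**Figure D4:**
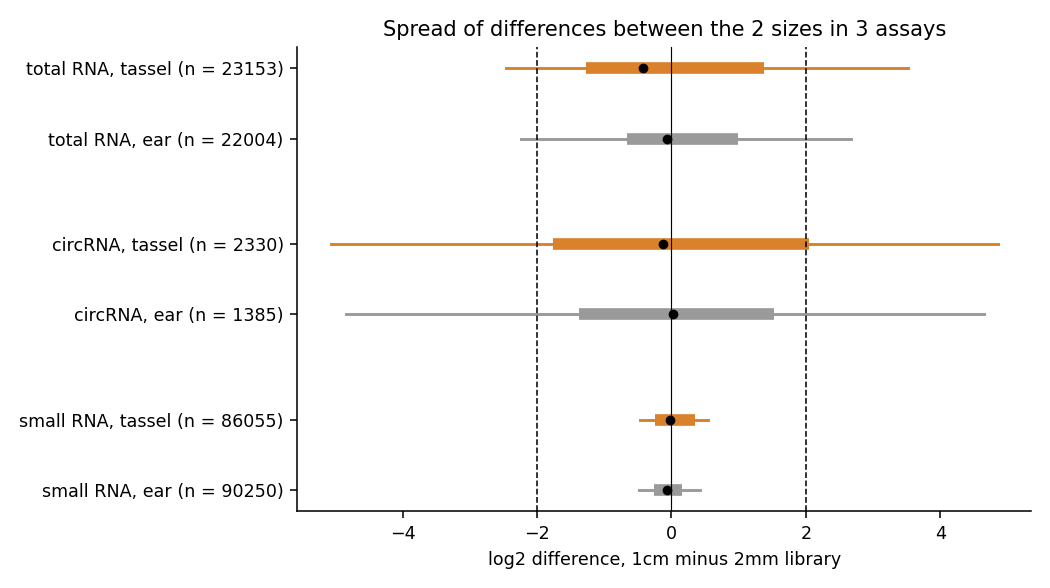
Log2 difference between the 1cm and the 2mm library in total RNA, circRNA and small RNA, for the tassel (orange) and the ear (grey). Thin lines run from the 1st to the 99th percentile of the features kept, thick lines from the 10th to the 90th, points mark medians and dashed lines mark 4-fold. The small RNA differences of the tassel span -0.46 to 0.54 between the 1st and 99th percentiles, and the total RNA differences -2.46 to 3.52.

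The 1cm Tassel held the most circRNA reads of any library. Reads recovered from the deposited values numbered 67091 at 2 mm and 107480 at 1 cm, the highest of 26. A library number was inferred from the smallest deposited value of each library, taken as 1 read. The scale factor used for this was assumed, and no source used here explains it. Relative to this library number, circRNA reads stood at 2146 per 1000000 at 2 mm and 4478 per 1000000 at 1 cm. Both rates depend on the assumed factor, whereas their ratio of 2.09 does not. By this measure the 1cm Tassel was again the highest of 26. CircRNAs with at least 1 read numbered 9175 at 2 mm and 12911 at 1 cm. At an equal depth of 67091 reads the expected number for the 1cm Tassel was 10353. At 41661 reads, the depth of the shallowest ear, it was 7534 for the 2mm Tassel and 8059 for the 1cm Tassel, and 4844, 7720 and 6796 for the ears in order of size.

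Of 17629 circRNAs with a read in either tassel, 4457 had reads in both, 48.6% of those in the 2mm Tassel and 34.5% of those in the 1cm Tassel. Among circRNAs with at least 10 reads in one tassel, 97.4% of those in the 2mm Tassel and 90.3% of those in the 1cm Tassel had a read in the other. Sharing thus rose with the number of reads.

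Of 2330 circRNAs with at least 10 reads over both tassels, 241 (10.3%) took an at least 4-fold larger share of the circRNA reads in the 1cm Tassel and 166 (7.12%) an at least 4-fold smaller one. The median log2 difference of shares was -0.13. On the deposited signal, which keeps the higher total of the 1cm Tassel, 511 (21.9%) were higher and 51 (2.19%) lower, with a median of 0.93. Exact 95% intervals of the read ratio, which cover counting error alone, lay above 1 for 228 of the 241 and below 1 for all 166. They lay wholly past 4-fold for 24 higher and 30 lower circRNAs. The same reads chose the 241 and the 166, so these counts are no separate check of the differences. No read was found at 2 mm for 147 of the 241, and none at 1 cm for 29 of the 166. Those circRNAs passed the filter of 10 reads through 1 tassel alone, and the 1cm Tassel had more circRNA reads. The 2330 kept were 13.2% of the circRNAs with a read in either tassel. The ear pair had 103 of 1385 (7.44%) higher and 62 (4.48%) lower. Across 1268 circRNAs kept in both pairs, Pearson's r of tassel and ear differences was 0.0889.

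The most read circRNA of both tassels, ZmCirc007160, had 1903 reads at 2 mm and 2289 at 1 cm. Per 10000 circRNA reads these were 283.6 and 213, a ratio of 0.751 (95% interval 0.706 to 0.798), or a log2 difference of -0.41 that was 0.65 on the deposited signal. ZmCirc001962 had 663 reads at 2 mm and 2158 at 1 cm, a ratio of shares of 2.03 (1.86 to 2.22), or a log2 difference of 1.02 that was 2.08, past 4-fold, on the deposited signal. ZmCirc033296 had 844 and 2072 reads, a ratio of 1.53 (1.41 to 1.66), or a log2 difference of 0.62 that was 1.68 on the deposited signal. ZmCirc041815, the third by reads in the 2mm Tassel, had 791 and 772 reads, a ratio of 0.609 (0.551 to 0.674), or a log2 difference of -0.71 that was 0.35 on the deposited signal. These 4 circRNAs, which make up the 3 most read of each tassel, were within 4-fold in share, and for ZmCirc007160 and ZmCirc041815 the direction depended on the scale.

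The widest circRNA differences involved counts of 0. ZmCirc036237 had 0 reads at 2 mm and 91 at 1 cm, at least 18.9-fold higher in share when the 2mm Tassel is set to the floor of 3 reads, while the exact 95% interval of the ratio allows values down to 15.1. It had 0 reads in all 3 ears and at most 34 in any other library, Primary Root(6DAS). ZmCirc023519 had 0 and 72 reads, at least 15.0-fold higher against that floor, with an interval down to 11.9, and it had 52 reads in the Husk leaf and 46 in the Inflorescence library. ZmCirc049505 had 147 reads at 2 mm and 0 at 1 cm, at least 78.5-fold lower against a floor of 3 reads at 1 cm, with an interval of the ratio up to 0.0159. It had 0 reads in all 24 other libraries, so all its reads came from 1 library. ZmCirc049917 had 95 reads at 2 mm and 0 at 1 cm, at least 50.7-fold lower against that floor, with an interval up to 0.0247. The ears had 75, 196 and 0 reads of it in order of size.

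The 241 higher circRNAs took 0.881% of the circRNA reads at 2 mm and 7.72% at 1 cm. Their share was highest in the Husk leaf at 11.5% and Stem(V6) at 9.98%. It was 5.85% to 11.5% over the 11 leaf libraries, which include the Husk leaf, 6.90% in the Inflorescence library, 3.58% to 4.40% in the 3 SAM libraries and 1.81% to 2.93% in the ears. All 2330 circRNAs kept took 63.3% to 80.9% of the reads of each library. The 166 lower circRNAs took 4.97% at 2 mm and 0.667% at 1 cm, and 1.87% to 2.26% in the 3 SAM libraries and 3 ears. Their highest share outside the tassels was in a leaf library, Base of Stage 2 Leaf-N(V5), at 2.46%, and Embryo(R2) and Endosperm(R2) had 2.02% and 1.99%. Over 1568 circRNAs the 2mm Tassel was nearest to the 1cm Ear, with a Spearman correlation of 0.807, closely followed by the 5mm Ear with 0.805. The 1cm Tassel was nearest to the Inflorescence library, with 0.857, followed by SAM(V4) with 0.787. The correlation between the tassels was 0.632, and that with the Husk leaf was 0.239 for the 2mm Tassel and 0.447 for the 1cm Tassel.

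**Figure D5:**
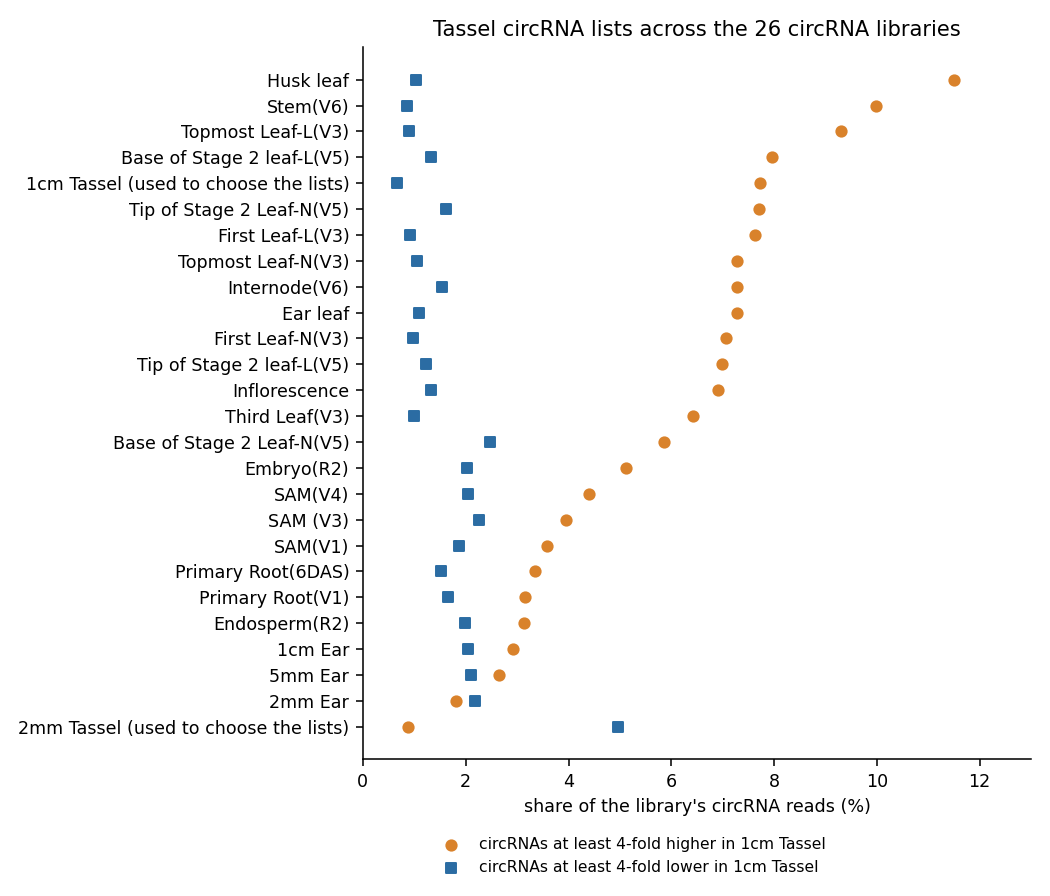
Share of each library's circRNA reads, in percent, taken by the 241 circRNAs at least 4-fold higher (orange circles) and the 166 at least 4-fold lower (blue squares) in the 1cm Tassel, in 26 circRNA libraries. The higher list takes 11.5% in the Husk leaf and 1.81% to 2.93% in the ears, and the lower list is at 4.97% in the 2mm Tassel, which was used to choose it.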

How the data were processed

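Total RNA and ribosome-bound levels were deposited as TPM by the authors. Small RNA values were deposited on a log2(TPM + 1) scale, and were differenced without another log. CircRNA values were deposited as a signal by the authors, and 100% of them were whole multiples of a step of their library (tolerance 0.001), from which whole reads were recovered. The submitters' processing notes name HISAT, StringTie, Bowtie 1.1.2, RSEM, SAMtools 1.9, cutadapt 1.9.1 and B73 RefGen_v4. The role of each is not stated there.

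Total RNA libraries were rescaled to 1000000 listed TPM and compared as log2(value + 1), for entries with a mean of at least 1. CircRNAs with at least 10 reads over both tassels were compared as shares of circRNA reads with 0.5 read added. Intervals are exact conditional intervals of the read ratio at 95%, and cover counting error only. In the deposited data, 1 line that held 2 records was split. With 1 library per size no count test was run. Gene models named are the 2 highest and 2 lowest of the 10 in each direction with a mean of at least 10 rescaled TPM, and other entry types, small RNAs and circRNAs (at least 20 reads) follow the same rule, with the most abundant entries. Members and lists were chosen with earlier results of these data known. Scripts were tested on simulated data. Python 3.11.15, numpy 2.4.6, pandas 2.3.3, scipy 1.17.1 and matplotlib 3.10.9 were used. Protein pairs were not used.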

Additional observations from a re-analysis of the deposited data

Results flagged for a closer look

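Several of the entries named above went in opposite directions in the tassel and the ear, each with 1 library per size, and the difference between the organs was not tested. The values are log2 differences, 1 cm minus 2 mm. Zm00001d022630 had 8.13 in the tassel and -1.16 in the ear, where its levels were low at each size. ZmLnc005895 had 11.08 in the tassel and -6.62 in the ear. ZmLnc005310 had -7.99 in the tassel and 4.66 in the ear, and ZmLnc005308 had -6.42 and 5.32. All 3 ZmLnc entries were listed at 0 in 1 tassel, so their values depend on the pseudocount. ZmsRNA131345 had -1.04 in the tassel and 1.25 in the ear, with 6.13 TPM in the 2mm Ear and 15.99 in the 1cm Ear. Its profile over the 26 libraries was nearly that of ZmsRNA302725, at -1.04 and 1.25.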

How the results depend on the processing

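Counts of total RNA entries at least 4-fold higher and lower in the 1cm Tassel (1319 and 448) became 163 and 2564 with TPM as deposited, 1986 and 244 after centring on the median, 2102 and 851 with a pseudocount of 0.1, 373 and 111 with one of 5, and 492 and 210 for a mean of at least 10. A 2-fold threshold, chosen after seeing the data, gave 3109 and 4435. Small RNA counts (10 and 0) became 24 higher with a pseudocount of 0.1, 0 with one of 5, 0 for a mean of at least 10, and 30 and 9 at 2-fold. CircRNA counts (241 and 166) became 511 and 51 on the deposited signal, 666 and 531 with at least 5 reads, 94 and 55 with at least 20, and 498 and 550 at 2-fold. Why these counts moved was not tested, beyond the thresholds and filters themselves. For the 69 entries that the naming rule selects, most of them not printed, 204 of 208 values under an alternative kept their sign, and none of the 4 others was past 4-fold in the main value. Of 166 values of entries past 4-fold, 4 were under 4-fold under an alternative. The rule selects mostly the widest differences, with 49 of the 69 past 4-fold, and a changed pseudocount cannot change a sign. The agreement in sign was thus largely set in advance and is no check of the differences. No paired analysis was possible because each size had 1 library per assay. Depth is unknown for total and small RNA, and the spread between plants was not measured, so no difference here has a replicate check.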

Other observations

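ZmLnc005895 was set beside another entry, ZmLnc005893, which was picked out after the values were seen. ZmLnc005893 was at 2062 rescaled TPM at 2 mm and 24.3 at 1 cm, and the sum of the pair was 2062 at 2 mm and 2188 at 1 cm. In SAM(V1) the pair stood at 66.1 and 1027 rescaled TPM, whereas in the 1cm Ear it stood at 2505 and 0.528. The sum was not level across the other libraries, nor was 1 entry always near 0: the 5mm Ear had 1332 and 453 rescaled TPM, Primary Root(6DAS) 458 and 0, and the sum ran from 286 in Endosperm(R2) to 26478 in Topmost Leaf-L(V3). Whether the entries share sequence or reads was not tested.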
